A study of Mus musculus with 12 samples.

Results

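The collagen genes are the 44 genes in the deposited gene table, of 32285 in all, whose symbol is Col, a number, the letter a and a number, one gene for each collagen alpha chain. They were described across the 12 cell types that the authors assigned to single cells of the mouse hippocampus. Droplet-based single-cell RNA sequencing had been run on 12 libraries from female C57/BL6J mice aged 9 weeks, in 4 groups of 3 libraries. The groups were PBS nonstim (vehicle injection, no stimulation), PBS stim (vehicle and 40 Hz light and sound, 1 h a day for 21 days), Cisplatin nonstim (the platinum chemotherapy drug cisplatin, no stimulation) and Cisplatin stim (both). The labels name 1 strain for all mice and no transgene or deletion, and they give no cisplatin dose. Tissue was taken on day 22. Replicates 2 and 3 each pooled 4 hippocampi from 2 animals, and replicate 1 held 2 hippocampi from 1 animal, so a library is the replicate here and pooled animals cannot be told apart.

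Collagens are secreted or membrane proteins whose chains wind around each other into a rope-like helix outside the cell. Fibrillar collagens, such as types I, III, V and XI, pack into fibrils and are made mainly by fibroblasts; in the brain these cells sit in the meninges, around larger vessels and in the stroma of the choroid plexus. Type IV chains form the sheet-like network of basement membranes, which in brain capillaries lies between endothelial cells, pericytes and the endfeet of astrocytes. Multiplexins sit in basement membranes, beaded filament (type VI) chains form fine filaments around them, FACIT collagens coat the surface of fibrils, short-chain collagens such as type VIII form lattices, and transmembrane collagens are anchored in the cell surface.

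The type IV genes lie in pairs that start close together on opposite strands. In the GENCODE M21 annotation of GRCm38, Col4a1 (chromosome 8, 11198423 to 11312826, minus strand) and Col4a2 (chromosome 8, 11312805 to 11449287, plus strand) have gene starts 21 bases apart. Col4a3 and Col4a4 start 72 bases apart on chromosome 1, and Col4a5 and Col4a6 start 1309 bases apart on chromosome X. RefSeq (GRCm38.p6) promoter windows, from 250 bases before to 50 bases after the annotated start, are shown for Col4a1 and Col4a2, the 2 most abundant collagens of endothelium and pericytes, and for Col1a2, the most abundant one of fibroblasts. Capitals mark the 78 bases that the Col4a1 and Col4a2 windows share, read on opposite strands, and in Col1a2 the letters CCAAT or their reverse complement.
Col4a1, chr8:11312777-11313076, minus strand: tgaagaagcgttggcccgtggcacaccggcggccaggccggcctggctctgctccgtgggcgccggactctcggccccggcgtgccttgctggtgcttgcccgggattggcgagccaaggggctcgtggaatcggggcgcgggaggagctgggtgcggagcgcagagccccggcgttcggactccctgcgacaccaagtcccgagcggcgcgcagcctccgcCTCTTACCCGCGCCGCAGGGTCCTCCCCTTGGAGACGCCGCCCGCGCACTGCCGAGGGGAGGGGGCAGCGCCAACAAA
Col4a2, chr8:11312555-11312854, plus strand: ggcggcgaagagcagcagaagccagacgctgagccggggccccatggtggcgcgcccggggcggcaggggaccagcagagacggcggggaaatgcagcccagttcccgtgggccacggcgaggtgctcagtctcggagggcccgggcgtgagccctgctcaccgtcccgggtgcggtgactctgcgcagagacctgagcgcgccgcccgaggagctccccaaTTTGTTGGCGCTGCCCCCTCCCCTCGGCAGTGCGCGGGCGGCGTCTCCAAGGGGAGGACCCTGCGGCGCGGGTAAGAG
Col1a2, chr6:4505368-4505667, plus strand: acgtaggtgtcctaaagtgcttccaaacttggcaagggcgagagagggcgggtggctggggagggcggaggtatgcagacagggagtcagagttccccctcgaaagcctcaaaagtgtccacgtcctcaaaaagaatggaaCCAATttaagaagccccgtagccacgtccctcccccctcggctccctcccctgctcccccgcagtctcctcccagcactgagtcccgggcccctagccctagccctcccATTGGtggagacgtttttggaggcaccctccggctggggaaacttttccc
The Col4a1 window held 74.0% G and C and the Col4a2 window 73.7%, against 61.0% for Col1a2 and a median of 52.7% over all 32851 windows of this length. Searched on both strands, CCAAT occurred 1 time in each type IV window and 2 times in that of Col1a2, and it was present in 37.4% of all windows. None of these 3 windows held TATAAA, which 13.6% of all windows did, and all 3 held GGGCGG, as 35.7% did. Each motif was counted on its own, and matches can overlap, since ATTGG, the reverse complement of CCAAT, can run into GGGCGG. A match describes the letters only.

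Depth differed between libraries, and some libraries stood apart. Each library held 611 to 2772 cells and 3964338 to 17656020 UMIs (unique molecular identifiers, each standing for 1 captured transcript), of which 940 to 5890 fell on collagens. The files hold 19834 cells, and 56 barcodes occur in more than 1 library. The 4 PBS libraries of the second batch, as the sample name prefixes give it (replicates 2 and 3), carried 1.87 to 3.65% of UMIs on 3 genes that collect ribosomal RNA-like reads (Gm42418, AY036118 and Lars2), against 0.34 to 0.78% in the other 8 libraries. This share therefore moves with the drug arm in the second batch, and fits with this share as a covariate are given below for the collagens called after cisplatin and for the called partner genes of endothelium, pericytes and choroid plexus.

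Collagen transcripts were sparse and belonged to a few genes. The 44 genes summed to 36700 of 122182983 UMIs. Counts above 1000 were reached by 7 of them: Col9a3 (8006 UMIs), Col4a1 (5655), Col27a1 (4450), Col4a2 (3941), Col8a1 (1779), Col11a2 (1759) and Col1a2 (1419). Under 20 UMIs in the whole series were counted for 6 others, Col10a1, Col6a4, Col6a6, Col22a1, Col28a1 and Col19a1. Levels are given in the usual CPM unit, the UMIs of a gene scaled to 1 fixed total of UMIs for every type and library. A UMI count comes from transcript ends and does not grow with transcript length. How evenly transcripts of different genes were captured was not checked, so comparisons between genes on this scale are approximate. By pooled CPM the fibroblasts ranked highest for 16 of the 44 genes, ependymal cells for 7, pericytes for 6, OPCs (oligodendrocyte precursor cells) for 4, neurons for 3, choroid plexus, astrocytes and microglia for 2 each, and oligodendrocytes and progenitors for 1 each. Endothelium and the Immune type ranked highest for 0. This tally includes the 6 genes with under 20 UMIs, whose ranks rest on few molecules. They are all 3 genes of neurons (Col19a1, Col22a1 and Col6a4) and the 1 gene of progenitors (Col6a6). Col10a1 in OPCs and Col28a1 in pericytes are the others. The authors' types come from clustering cells on genes that include these, so differences between types are described here without a test.

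**Figure D1:**
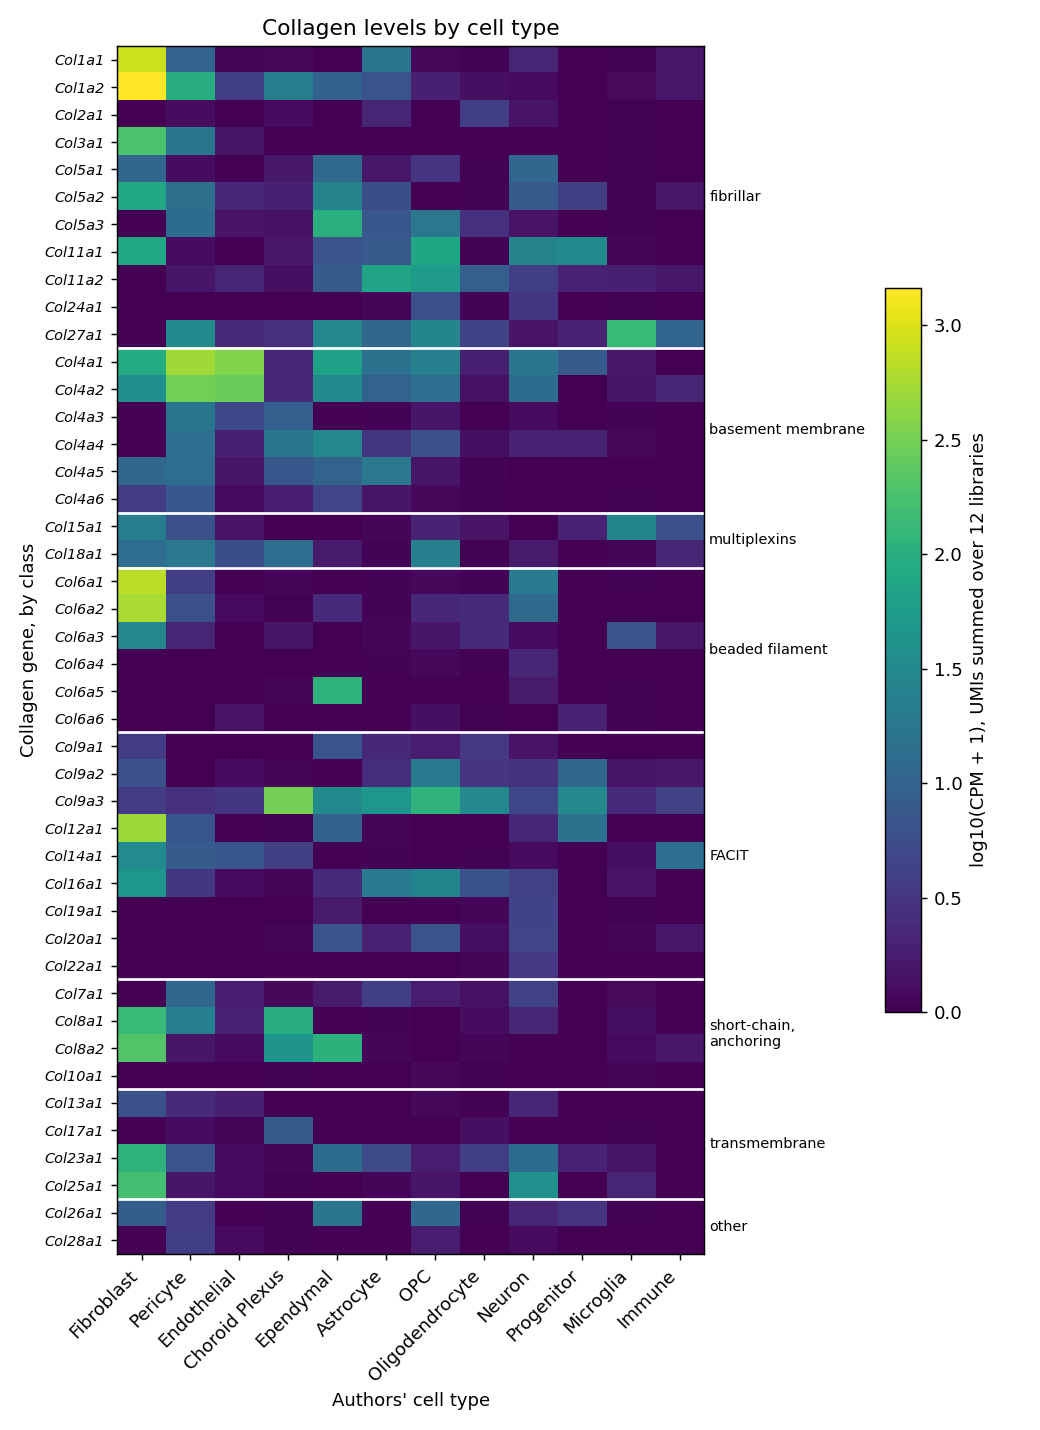
Pooled level of the 44 collagens (rows, grouped by class) in the 12 cell types (columns), as log10(CPM + 1) of UMIs summed over 12 libraries. Col1a1, Col1a2, Col6a1 and Col6a2 are brightest in fibroblasts (Col1a2 at 1457 CPM), Col4a1 and Col4a2 in pericytes and endothelium, and Col9a3 in choroid plexus (313 CPM).

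Fibroblasts held the highest levels of the fibrillar chains Col1a1, Col1a2, Col3a1 and Col5a2. Their lead for Col11a1 was narrow, at a pooled 78.3 CPM against 72.4 in OPCs. Col2a1, Col5a3, Col11a2, Col24a1 and Col27a1 had 0 UMIs in fibroblasts, a count that allows up to 3. This type was 72 cells with a median of 3569 UMIs. Of the 10 fibroblast markers all were detected, led by Mgp (11927 CPM) and Ogn (1879 CPM), while Aldh1a2, an enzyme of retinoic acid synthesis found in meningeal fibroblasts, had 2 UMIs. Col1a2, which with Col1a1 makes type I collagen, reached 1457 CPM in the pooled cells (exact Poisson 95% interval 1341 to 1581; intervals cover counting error only), and Col1a1 reached 836 (748 to 931). The type VI chains Col6a1 and Col6a2 stood at 682 (603 to 768) and 576 (503 to 656), and the FACIT chain Col12a1 at 497 (430 to 572). Col3a1, the type III chain of elastic tissues, was lower at 182 (142 to 229). In the 3 libraries with at least 10 fibroblasts, all of them cisplatin libraries, Col1a2 had 1524, 1365 and 2268 CPM, Col1a1 had 978, 758 and 1426, and Col6a1 had 800, 585 and 833. Summed over classes, fibrillar chains made 2639 CPM and type IV chains 138.9 CPM of fibroblast RNA.

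Col1a2 was found in 86.1% of fibroblasts and in 52.9% of the 68 that could be thinned to 1000 UMIs. In microglia, which should lack it, 0.132% of cells had a UMI at a median of 6123 UMIs per cell.

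Pericytes, the contractile cells wrapped around capillaries, were led by type IV chains and also held type I transcripts. Col4a1 averaged 496 ± 140 CPM (SD, n = 11 libraries), Col4a2 308 ± 77.0 and Col1a2 92.9 ± 32.9. Type IV chains summed to 872 CPM and fibrillar chains to 175 CPM. The pericyte barcodes also carried all 9 endothelial markers, at a summed 13349 CPM against 21423 CPM in the endothelium, and their own 8 pericyte markers at 12660 CPM. Of the 10 fibroblast markers they held 9, at a summed 992 CPM, against 16811 CPM in fibroblasts and 132 CPM in endothelium. All 4 smooth muscle markers were detected as well, at a summed 766 CPM (27.9 to 2259 in PBS libraries, 92.5 to 1233 in cisplatin libraries). Of the pericytes, 35 held at least 5 smooth muscle marker UMIs. The part of fibroblast transcripts in the pericyte Col1a2 level was not tested, nor was that of smooth muscle cells in this type. The 97 pericytes with at most 5 endothelial marker UMIs, a limit chosen after the values were seen, had a median of 2501 UMIs and held 734 CPM of Col4a1, 308 of Col4a2, 374 of Col1a2 and 103 of Col3a1. The other 282, with a median of 11651 UMIs, held 499, 306, 68.3 and 8.11 CPM of the same genes. The level of Col4a2 was thus alike in both sets of pericytes, and those of Col1a2 and Col3a1 were higher in the shallower set. That set held 102 Col1a2 UMIs and 28 Col3a1 UMIs, against 219 and 26 in the other pericytes.

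Endothelium held type IV chains and almost nothing of the fibrillar class. Col4a1 averaged 357 ± 108 CPM (SD, n = 12) and Col4a2 283 ± 51.1. The next collagen, the FACIT chain Col14a1, averaged 5.81 ± 3.21. Type IV chains made 647 CPM of endothelial RNA and the 11 fibrillar chains together 7.86. Endothelial cells contributed 57.1% of all Col4a1 UMIs and pericytes 31.8%. Col4a1 was detected in 69.8% of endothelial cells (27.7% after thinning to 1000 UMIs, median depth 4680 UMIs) and in 87.3% of pericytes (37.5% after thinning, median 8844). In oligodendrocytes, which should lack it, the share was 0.535% (0.129% after thinning) at a median of 7157 UMIs.

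The leading collagen varied among the other types, with Col9a3 leading in choroid plexus, OPCs and oligodendrocytes. In choroid plexus epithelium, the tissue that makes cerebrospinal fluid, Col9a3 averaged 311 ± 84.6 CPM (SD, n = 12 libraries). Col9a3 encodes 1 of the chains of type IX collagen, yet its partner chains were nearly absent there: Col9a1 had 0 UMIs and Col9a2 had 2, beside 5480 of Col9a3. A count of 0 allows up to 3 UMIs, or 0.171 CPM. The same epithelium held Col8a1 (88.5 ± 61.0 CPM) and Col8a2 (46.4 ± 25.0), the chains of type VIII collagen. Both were concentrated in 1 of the 2 choroid plexus clusters of the authors: Col8a1 stood at 164 CPM in cluster 4 and 18.3 CPM in cluster 3, and Col9a3 at 464 and 158 CPM. Col8a1, Col8a2 and the genes of the next sentences that do not lead their type were chosen for display after their values were seen.

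Among glia, OPCs were led by Col9a3 (118 ± 30.6 CPM, SD, n = 12), followed by Col11a1 (70.9 ± 17.6) and Col11a2 (57.7 ± 20.6), fibrillar chains of cartilage. Astrocytes were led by Col11a2 (71.1 ± 23.4 CPM, lowest library 24.0, highest 105). They also held Col1a1 in every library (8.45 to 28.4 CPM, 264 UMIs), more than its partner Col1a2 (93 UMIs), the reverse of the order in fibroblasts. Oligodendrocytes were led by Col9a3 as well, at 31.6 ± 6.96 CPM. Microglia, the resident macrophages of the brain, were led by Col27a1, a fibrillar chain, at 130 ± 24.7 CPM, and they supplied 85.8% of all its UMIs and 92.5% of those of the multiplexin Col15a1 (27.8 ± 7.88 CPM). Because of Col27a1, microglia held 38.3% of all fibrillar UMIs of the series, against 10.4% from fibroblasts, which were far fewer cells.

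Rarer types followed with low counts. Ependymal cells, which line the ventricles, were led by Col6a5 (117 ± 55.6 CPM, SD, n = 9 libraries), and 96.3% of its UMIs were theirs. The lead was narrow, with pooled levels of 111 CPM for Col6a5, 107 for Col8a2 and 101 for Col5a3. In PBS libraries (n = 5) Col6a5 averaged 142 CPM and Col5a3 95.7, and in cisplatin libraries (n = 4) 85.6 and 125. Neurons were led by the transmembrane collagen Col25a1 (36.4 ± 16.4 CPM, n = 12), progenitors by Col11a1 (29.6 ± 16.6, n = 6) and the Immune type by Col14a1 (11.998 ± 16.1, n = 12), the last from 21 UMIs.

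Fibroblasts could be compared between drug arms only as values. PBS libraries held 10 fibroblasts in all and cisplatin libraries 62, and only 2 PBS libraries had 3 or more, below the minimum of 3 libraries per arm that was set. Col1a2 stood at 924 CPM (95% Poisson interval 663 to 1253) in the PBS cells and 1524 (1398 to 1659) in the cisplatin cells. Col1a1 stood at 428 (258 to 668) and 887 (792 to 992), and Col6a1 at 361 (206 to 585) and 722 (636 to 817). Col3a1 was alike at 180.3 (77.8 to 355) and 182 (140.2 to 232). These intervals cover counting error within the pooled cells, not the spread between mice. With libraries of 1 fibroblast or more admitted (5 PBS and 6 cisplatin libraries), edgeR tested 8 collagens and called 0, with 2 at an unadjusted p under 0.05, Col6a2 at a log2 fold change of 1.53 ± 0.63 (SE, adjusted p = 0.27) and Col6a1 at 1.47 ± 0.65 (adjusted p = 0.33). Of all 778 genes in this fit, 11 were called higher and 3 lower. DESeq2 was not run on fibroblasts.

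In the comparison of cisplatin with PBS, averaged over stimulation, the collagens that changed were lower. In these summed counts, fewer cells expressing a gene and fewer transcripts per cell cannot be told apart. Of 44 collagens, 26 passed the filter on low counts in at least 1 of the 9 types tested, making 50 gene and type pairs. Of these pairs 8 were lower and 0 higher (edgeR quasi-likelihood test, Benjamini-Hochberg adjusted p under 0.05 within a type), beside 4.60% of all 69488 gene and type pairs called lower and 5.12% called higher. At an unadjusted p under 0.05, 14 pairs were lower and 4 higher, and DESeq2 called 6. DESeq2 gave no adjusted p for Col27a1 in OPCs. The 8 pairs were 7 genes in 5 types: Col4a1 in endothelium, Col4a3, Col17a1 and Col1a2 in choroid plexus, Col2a1 and Col27a1 in oligodendrocytes, Col27a1 in OPCs and Col6a3 in microglia. By class, 4 of 19 fibrillar pairs, 2 of 12 basement membrane pairs, 1 of 2 beaded filament pairs and 1 of 3 transmembrane pairs were lower, and 0 of 9 FACIT, 0 of 2 multiplexin and 0 of 3 short-chain pairs were. With the ribosomal RNA-like share as a covariate 0 of the 8 were called, and all 8 fold changes stayed below 0. Choroid plexus Col1a2 moved most, from -1.17 to -0.10 on the log2 scale, while Col27a1 in both types, microglial Col6a3 and endothelial Col4a1 stayed about as large. Within the second batch alone 15 pairs were called, 13 lower and 2 higher.

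**Figure D2:**
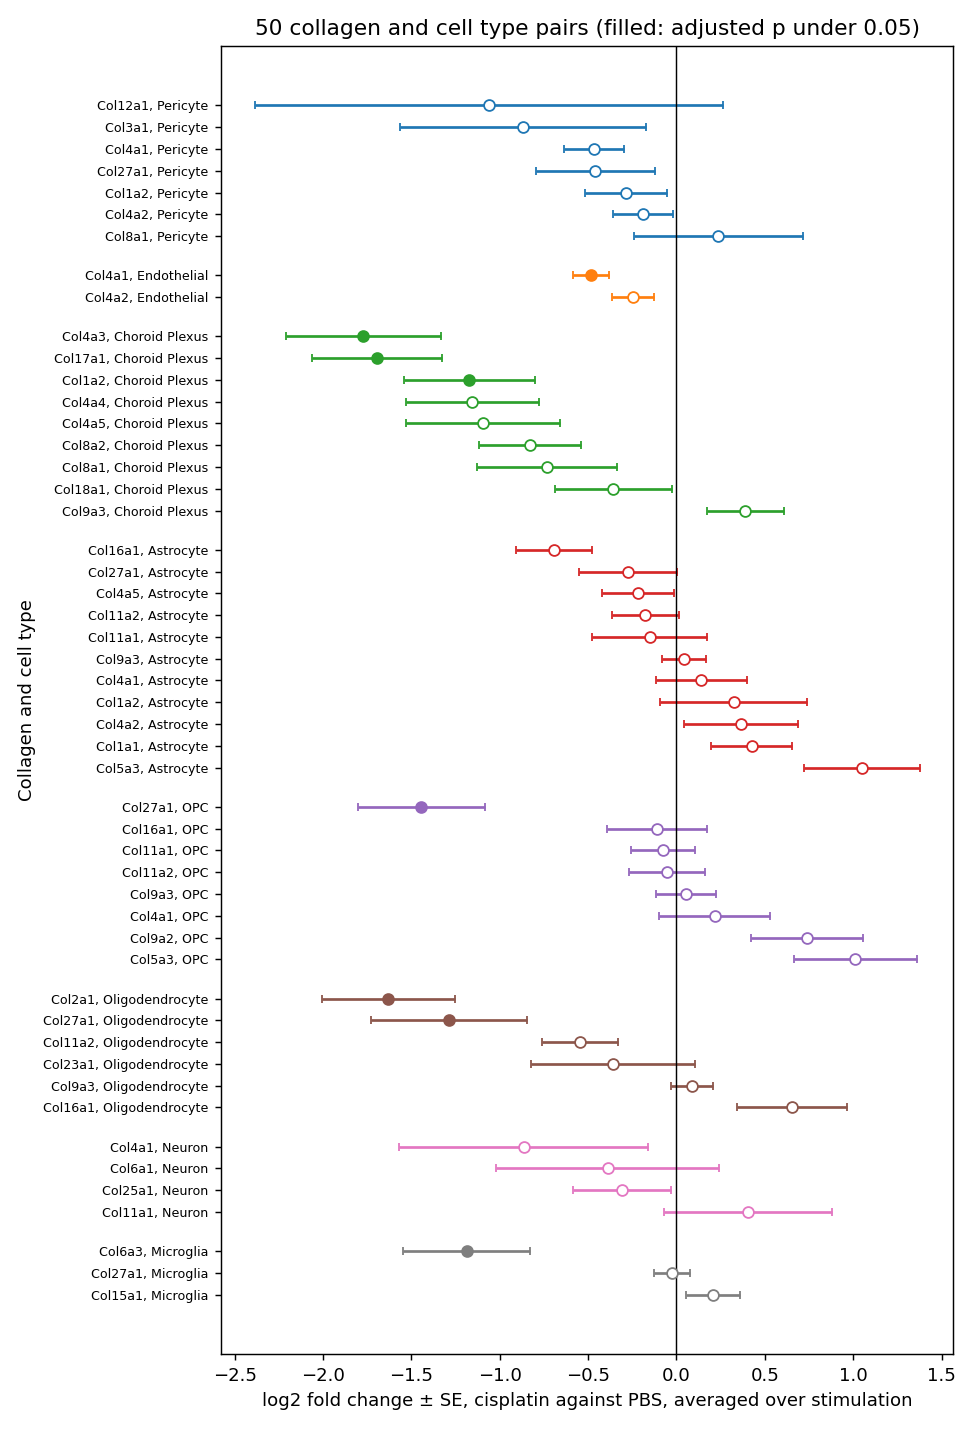
Log2 fold change ± SE of cisplatin against PBS, averaged over stimulation, for the 50 collagen and cell type pairs tested, grouped by type. The 8 filled points, adjusted p under 0.05, all lie below 0, and 34 of the 50 points do.

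In endothelium, 1 of the 2 collagens tested, Col4a1, was lower after cisplatin, beside 2.53% of 8145 endothelial genes called lower and 3.13% called higher. Col4a1 stood at 289, 457 and 417 CPM in PBS nonstim replicates 1 to 3 and at 273, 468 and 597 in PBS stim. It stood at 227, 327 and 336 in Cisplatin nonstim and at 247, 306 and 346 in Cisplatin stim. All 4 PBS libraries of the second batch were above all 6 cisplatin libraries, and both PBS libraries of the first batch lay inside the cisplatin range. The log2 fold change was -0.48 ± 0.10 (SE, edgeR adjusted p = 0.0059). Within the second batch it was -0.60 (adjusted p = 3.9e-04), and within the first batch, with 2 libraries in each arm, -0.20 ± 0.21 (adjusted p = 0.99; stimulation pooled, an alternative added after seeing the data). It was called in all 12 fits that left out 1 library (-0.54 to -0.41). The call was lost without the batch term (adjusted p = 0.089) and with the ribosomal RNA-like share as covariate (-0.44 ± 0.16, adjusted p = 0.34). The 8 pericyte markers summed to 525 to 949 CPM in the endothelium of PBS libraries and 497 to 862 in that of cisplatin libraries, so these ranges overlapped.

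Col4a2, the partner chain that shares the promoter region, was not called. In endothelium it stood at 304 ± 53.5 CPM in PBS (SD, n = 6) and 261 ± 42.0 in cisplatin libraries (n = 6), a log2 fold change of -0.24 ± 0.12 (edgeR adjusted p = 0.26). Its ranges overlapped, from 230.1 to 378 CPM in PBS and 203 to 329 in cisplatin libraries. It was called in the second batch alone (-0.40, adjusted p = 0.019) and without Cisplatin stim replicate 1 (-0.37, adjusted p = 0.032).

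In pericytes 0 of 7 collagens were called, beside 0.592% of 6591 genes called lower and 0.880% called higher. Col4a1 stood at 300, 671 and 718 CPM in PBS nonstim, at 638 and 599 in PBS stim replicates 2 and 3, at 431, 401 and 384 in Cisplatin nonstim and at 496, 350.3 and 473 in Cisplatin stim. PBS stim replicate 1, with 5 pericytes, did not enter the fit. Here too the 4 PBS libraries of the second batch were above every cisplatin library, and PBS nonstim replicate 1 was below all of them. Cisplatin libraries differed from PBS libraries by a log2 fold change of -0.47 ± 0.17 (edgeR adjusted p = 0.21), and that of Col4a2 was -0.19 ± 0.17 (adjusted p = 0.67). Pericyte Col4a1 was called without PBS nonstim replicate 1 (-0.71, adjusted p = 0.0034) and in the second batch alone (-0.71, adjusted p = 0.0021), and with the ribosomal RNA-like share as covariate it was 0.12 ± 0.25 (adjusted p = 0.95). The 9 endothelial markers summed to 12112 to 15434 CPM in the pericytes of PBS libraries and 10601 to 15197 in those of cisplatin libraries. The difference between the cisplatin effects in endothelium and pericytes was tested on the 11 libraries with both types, as the per-library difference of log2 CPM (limma). It was -0.13 for Col4a1 (95% interval -0.68 to 0.41, limma adjusted p = 0.98) and -0.14 for Col4a2 (-0.55 to 0.27, adjusted p = 0.97). Differences anywhere within these intervals remain compatible with the data, so equal effects in the 2 types were not shown. Without PBS nonstim replicate 1 the Col4a1 difference was 0.13 (adjusted p = 0.99). limma called 0 of 6262 genes in this test, and 340 had an unadjusted p under 0.05; DESeq2 was not run on it.

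**Figure D3:**
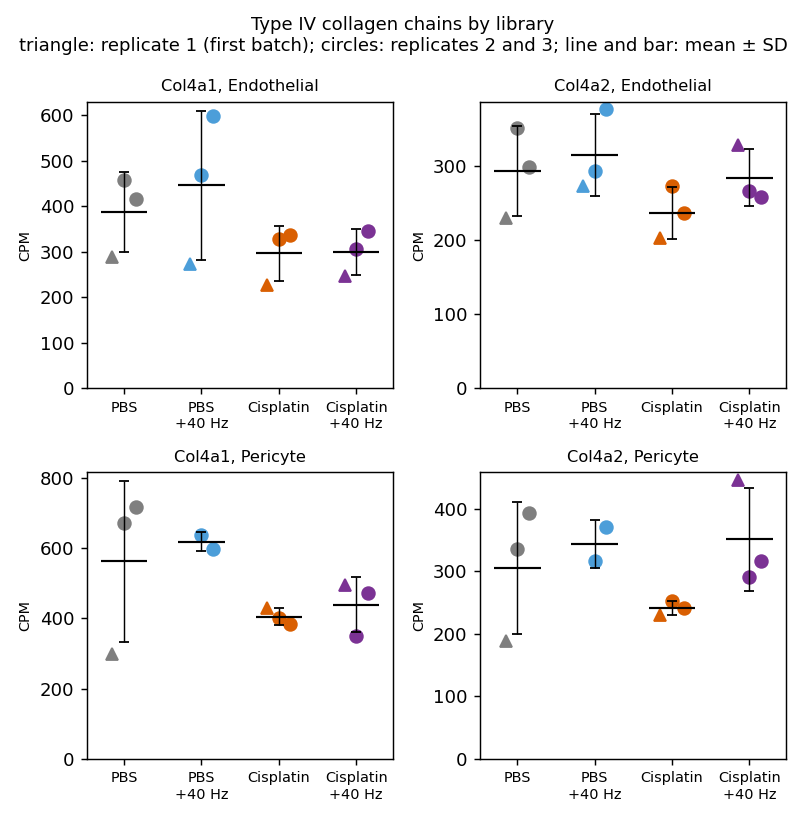
Col4a1 and Col4a2 levels (CPM, from 0) in each library with at least 10 cells, in endothelium and pericytes, by group, with the mean and SD. Triangles are first-batch libraries: for Col4a1 the PBS circles sit above the cisplatin points in both types (endothelium 417 to 597 against 227 to 346 CPM), and the PBS triangles do not.

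The choroid plexus had the most collagen calls: 3 of 9 collagens tested were lower, beside 8.43% of 7952 genes. Col4a3, a type IV chain of specialised basement membranes, stood at 0, 24.9 and 19.7 CPM in PBS nonstim and at 19.9, 11.6 and 13.1 in PBS stim. It stood at 4.35, 3.91 and 2.39 in Cisplatin nonstim and at 19.9, 2.22 and 2.62 in Cisplatin stim. The log2 fold change was -1.77 ± 0.44 (SE, edgeR adjusted p = 0.021). In the second batch each PBS library was above each cisplatin library; in the first batch the libraries did not separate, and the 2 PBS libraries there held only 29 and 18 choroid plexus cells, with 0 and 2 UMIs of Col4a3.

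Col17a1, a transmembrane collagen known from epithelial hemidesmosomes, stood at 12.95, 17.6 and 10.3 CPM in PBS nonstim, 0, 12.9 and 13.1 in PBS stim, 7.61, 3.09 and 2.39 in Cisplatin nonstim and 5.67, 3.33 and 2.62 in Cisplatin stim. All PBS libraries but the one at 0 were above all cisplatin libraries, and the log2 fold change was -1.69 ± 0.37 (edgeR adjusted p = 0.015). The first-batch PBS libraries held only 29 and 18 choroid plexus cells. Their values of 12.95 and 0 CPM, for Col17a1 as for Col1a2, rest on very few UMIs. Col1a2 stood at 12.95, 54.2 and 48.7 CPM in PBS nonstim, 0, 36.0 and 27.2 in PBS stim, 26.1, 7.98 and 2.39 in Cisplatin nonstim and 28.4, 23.9 and 13.97 in Cisplatin stim. Its ranges overlapped, with a log2 fold change of -1.17 ± 0.37 (edgeR adjusted p = 0.046). Of the 6 collagens not called, which were chosen for display after their values were seen, Col4a4 was nearest the threshold at -1.15 ± 0.38 (edgeR adjusted p = 0.051), and Col9a3, the leading one, was at 0.39 ± 0.22 (adjusted p = 0.21).

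The choroid plexus calls were lost more often than that of endothelial Col4a1 when 1 library was left out. Col4a3, Col17a1 and Col1a2 were called in 5, 6 and 4 of the 12 fits that left out 1 library, and each call was lost when PBS nonstim replicate 2 or 3, PBS stim replicate 2 or 3, Cisplatin nonstim replicate 2 or Cisplatin stim replicate 2 was left out; Col4a3 also lost it without Cisplatin stim replicate 3, and Col1a2 without Cisplatin nonstim replicate 3 or Cisplatin stim replicate 3. Without both PBS replicate 1 libraries, an alternative added after seeing the data, all 3 were called. The share of choroid plexus cells in cluster 4 was 24.1% and 5.56% in those 2 libraries and 44.4 to 60.4% in the other 10. Within the second batch it was 51.3 to 60.4% in the 4 PBS libraries and 44.4 to 50.7% in the 4 cisplatin libraries, so the arms did not overlap. In cluster 4 alone, another alternative added after seeing the data, all 3 were called, Col4a3 at -1.83 (edgeR adjusted p = 1.3e-04), Col17a1 at -1.56 (adjusted p = 0.0023) and Col1a2 at -1.31 (adjusted p = 9.5e-06). That fit dropped both PBS replicate 1 libraries, which had 7 and 1 cells of the cluster, under the minimum of 10. With the ribosomal RNA-like share as covariate the log2 fold changes were -1.29 ± 0.79, -1.41 ± 0.67 and -0.10 ± 0.61 (adjusted p = 0.97, 0.93 and 0.999). The 7 choroid plexus markers summed to 42017 to 176142 CPM in PBS libraries (median 139873) and 116779 to 243444 in cisplatin libraries (median 190989), and the 10 fibroblast markers to 219 to 1265 and 783 to 1075. Most of the latter was Igfbp2 (966 CPM). The fibroblast markers Dcn and Mgp stood at 0.457 and 0.686 CPM and Lum, Aldh1a2 and Slc47a1 at 0. Another of these markers, Ogn, averaged 40.4 CPM in PBS libraries (0 to 82.0) and 21.5 in cisplatin libraries (14.3 to 35.9). The part of these marker shifts in the result was not tested.

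In oligodendrocytes, the myelin-forming cells, 2 of 6 collagens were called, both lower, beside 23.3% of 10094 genes called in either direction. Col2a1, the main fibrillar chain of cartilage, was rare but separated the arms fully: it stood at 2.71, 3.18 and 5.26 CPM in PBS nonstim and 4.04, 5.68 and 3.63 in PBS stim, against 1.78, 0.793 and 1.75 in Cisplatin nonstim and 0.963, 1.77 and 0.922 in Cisplatin stim. These levels rest on 4 to 26 UMIs in each PBS library and 2 to 5 in each cisplatin library. This gave a log2 fold change of -1.63 ± 0.38 (edgeR adjusted p = 0.0037), called in all 12 fits that left out 1 library, and with the ribosomal RNA-like share as covariate it was -0.90 ± 0.55 (adjusted p = 0.39). The 6 oligodendrocyte markers were themselves higher in PBS (50372 to 59890 CPM) than in cisplatin libraries (41779 to 49107 CPM), and their part in the result was not tested.

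Col27a1 was lower in oligodendrocytes and in OPCs. In oligodendrocytes it stood at 2.33 to 7.07 CPM in PBS and 0 to 4.73 in cisplatin libraries, with a log2 fold change of -1.29 ± 0.44 (edgeR adjusted p = 0.040), and was called in 4 of 12 fits that left out 1 library, namely those without PBS nonstim replicate 1, PBS stim replicate 2, Cisplatin nonstim replicate 1 or Cisplatin stim replicate 2. It was also lost with no batch term, without cells over 10% mitochondrial UMIs, without both PBS replicate 1 libraries and with the covariate (-1.43 ± 0.70, adjusted p = 0.27). In OPCs, where 1 of 8 collagens was called beside 0.716% of 7684 genes lower, it stood at 31.1, 41.4 and 23.7 CPM in PBS nonstim, 21.4, 39.9 and 54.1 in PBS stim, 14.3, 2.81 and 14.7 in Cisplatin nonstim and 25.7, 0 and 13.3 in Cisplatin stim. Only Cisplatin stim replicate 1 reached into the PBS range there. The log2 fold change was -1.44 ± 0.36 (edgeR adjusted p = 0.025), within the second batch -2.17 (adjusted p = 0.0046) and within the first -0.57 ± 0.51 (adjusted p = 0.94). The call was lost without PBS nonstim replicate 2, PBS stim replicate 2 or 3, Cisplatin nonstim replicate 2, or Cisplatin stim replicate 2 or 3. It was also lost with no batch term (adjusted p = 0.069), without cells over 10% mitochondrial UMIs (-1.25, adjusted p = 0.098), in OPC cluster 9 alone (-1.31, adjusted p = 0.081) and with the covariate (-1.34 ± 0.50, adjusted p = 0.50).

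In microglia 1 of 3 collagens was lower, beside 6.60% of 9903 genes. This was Col6a3, a type VI chain, at 5.88, 6.60 and 10.1 CPM in PBS nonstim, 11.4, 3.70 and 7.31 in PBS stim, 4.32, 5.63 and 3.86 in Cisplatin nonstim and 0, 1.55 and 2.81 in Cisplatin stim. On the log2 scale the change was -1.19 ± 0.36 (edgeR adjusted p = 0.029), and the ranges overlapped. The call was lost without PBS nonstim replicate 3, PBS stim replicate 1 or 3, Cisplatin nonstim replicate 3 or Cisplatin stim replicate 2, in the second batch alone (-0.98, adjusted p = 0.060), with no batch term, without both PBS replicate 1 libraries and with the covariate (-1.35 ± 0.55, adjusted p = 0.30). The fibroblast markers summed to 1.27 to 5.12 CPM in microglia of PBS libraries and 3.93 to 9.66 in those of cisplatin libraries, and their part in the result was not tested. The leading microglial collagen was not called: Col27a1 stood at 133 ± 17.7 CPM in PBS (SD, n = 6) and 128 ± 31.9 in cisplatin libraries (n = 6), a log2 fold change of -0.02 ± 0.10 (edgeR adjusted p = 0.91).

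The remaining types had 0 calls: 0 of 11 collagens in astrocytes, beside 2.42% of genes lower and 2.60% higher, and 0 of 4 in neurons, beside 1.69% and 6.69%. In astrocytes Col16a1, a FACIT chain, had a log2 fold change of -0.69 ± 0.21 (edgeR adjusted p = 0.056) and Col5a3 one of 1.05 ± 0.33 (adjusted p = 0.059). Immune cells had no collagen above the filter.

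**Figure D4:**
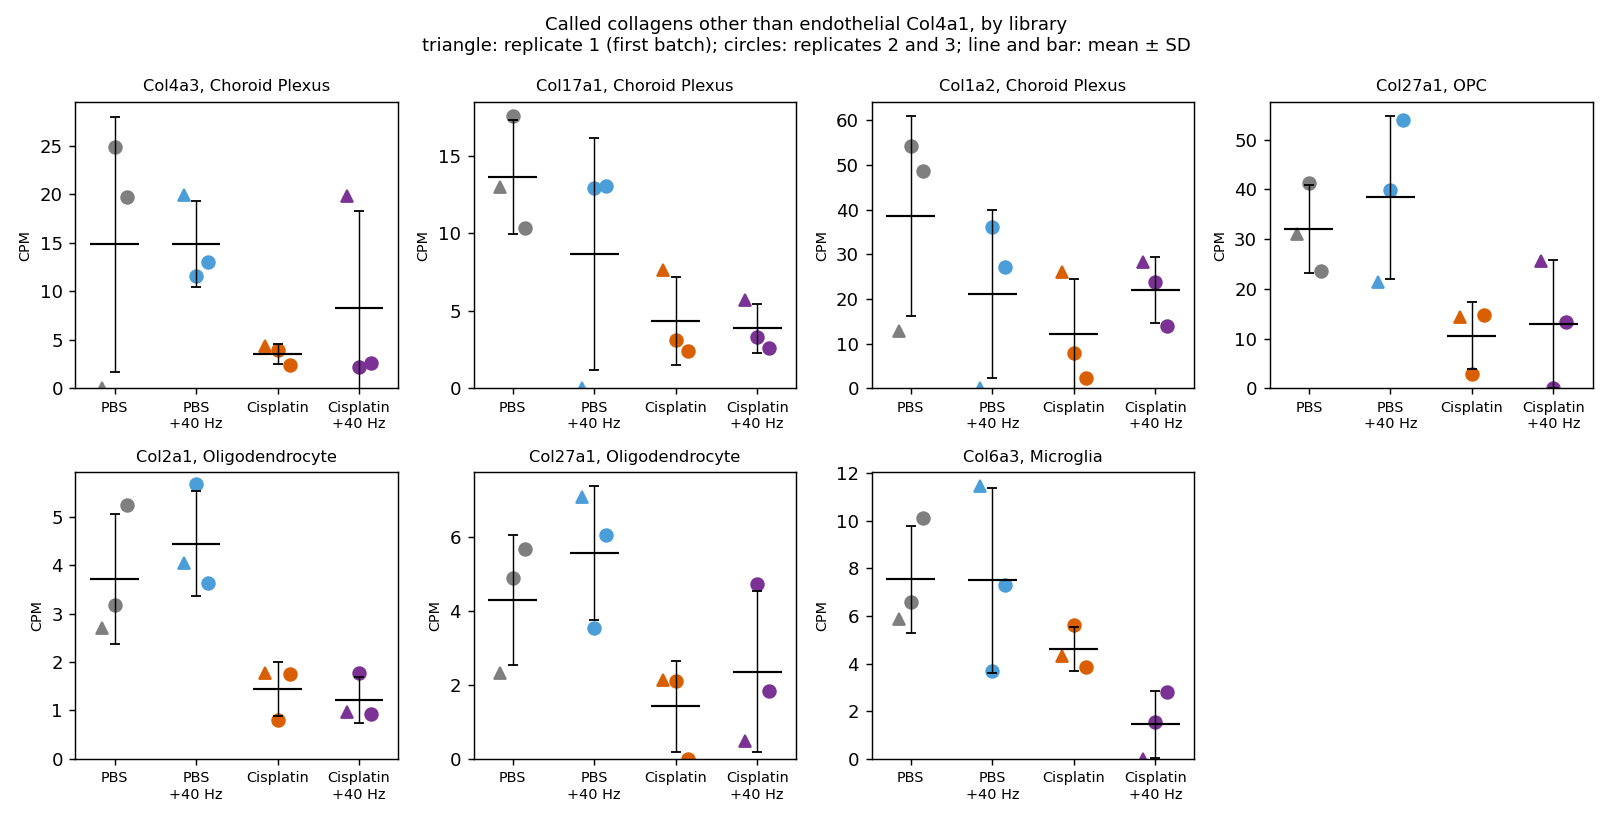
Levels (CPM, from 0) of the 7 called collagen and type pairs other than endothelial Col4a1, by library and group, with mean and SD. Col2a1 in oligodendrocytes separates PBS (2.71 to 5.68 CPM) from cisplatin libraries (0.793 to 1.78 CPM), while the choroid plexus triangles, first-batch libraries, overlap.

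The 2 arms without stimulation, Cisplatin nonstim against PBS nonstim, gave 0 collagen calls of 50 pairs by edgeR and 0 by DESeq2, beside 1.64% of all gene and type pairs called in either direction and 0.707% called lower. At an unadjusted p under 0.05, 13 pairs were lower and 1 higher, led by Col1a2 in choroid plexus at -2.02 ± 0.53 (edgeR adjusted p = 0.086). The count was not steady: it was 8, all lower, without PBS nonstim replicate 1, 5 without PBS stim replicate 1, 1 without Cisplatin nonstim replicate 1, and 10 in the second batch alone. This comparison shares its 6 libraries with the averaged one, so the 2 are not independent.

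Stimulation at 40 Hz moved no collagen past the threshold. In cisplatin mice edgeR and DESeq2 each called 0 of 50 pairs, beside 0.196% of all pairs, with 1 higher and 5 lower at an unadjusted p under 0.05. In PBS mice both called 0, beside 0.00%, with 1 higher and 1 lower at an unadjusted p under 0.05. The interaction, the effect of stimulation in cisplatin mice minus that in PBS mice, gave 0 calls by both, beside 0.0245%, with 2 higher and 1 lower at an unadjusted p under 0.05. Endothelial Col4a1 averaged 446 ± 163 CPM (SD, n = 3) in PBS stim against 387 ± 87.9 in PBS nonstim, and 299 ± 49.8 in Cisplatin stim against 297 ± 60.8 in Cisplatin nonstim. Pericyte Col4a2 was 351 ± 82.6 CPM in Cisplatin stim (range 291 to 446) and 241 ± 11.02 in Cisplatin nonstim (230.2 to 252), so these groups did not overlap, but the difference was not called (log2 fold change 0.48 ± 0.22, edgeR adjusted p = 0.82).

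Genes that fold, assemble, anchor or cut collagen were followed in endothelium, pericytes and choroid plexus, in 6 lists. Over all genes tested, 3.13% were higher and 2.53% lower in endothelium after cisplatin, and 0.880% and 0.592% in pericytes. For collagen biosynthesis and processing in endothelium, 1 of 14 tested members was lower and 0 higher after cisplatin, with a list median log2 fold change of 0.03 beside 0.01 for all endothelial genes. The member was Serpinh1, the collagen-specific chaperone HSP47 of the endoplasmic reticulum. It stood at 227, 175 and 157 CPM in PBS nonstim, 162, 152 and 188 in PBS stim, 161, 102 and 83.9 in Cisplatin nonstim and 165, 88.3 and 118 in Cisplatin stim. The first-batch cisplatin libraries reached into the PBS range and the other 4 did not. The log2 fold change was -0.63 ± 0.12 (edgeR adjusted p = 0.0023), called in all 12 fits that left out 1 library and lost with the covariate, where the fold change was -0.49 ± 0.19 (adjusted p = 0.36). Without stimulation it was -0.73 ± 0.16 (edgeR adjusted p = 0.021), lost without PBS nonstim replicate 2 or 3 or Cisplatin nonstim replicate 2 or 3 and with the covariate (-0.59 ± 0.22, adjusted p = 0.72). In pericytes 0 of 13 were called, and Serpinh1 was at -0.56 ± 0.16 (edgeR adjusted p = 0.095).

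Of the basement membrane partners, 1 of 11 was lower in endothelium, Sparc, a secreted glycoprotein that binds type IV collagen. It had 1708 ± 213 CPM in PBS (SD, n = 6, range 1472 to 2076) and 1234 ± 259 in cisplatin libraries (n = 6, range 795 to 1434), so the arms did not overlap. As a log2 fold change this was -0.48 ± 0.11 (edgeR adjusted p = 0.011), and it kept its call with the ribosomal RNA-like share as covariate (-0.79 ± 0.15, adjusted p = 0.017) but not in the second batch alone (-0.24, adjusted p = 0.068). The list median was 0.16. Sparc was also called in 4 other types, chosen after the values were seen: it was higher in oligodendrocytes (1.32 ± 0.12, adjusted p = 1.4e-07), astrocytes (0.73 ± 0.14, adjusted p = 0.0012) and neurons (2.48 ± 0.37, adjusted p = 6.3e-04), and lower in microglia (-0.26 ± 0.07, adjusted p = 0.019). The difference between types was not tested. The 6 astrocyte markers summed to 1240 to 1888 CPM in the neurons of PBS libraries and 1964 to 7540 in those of cisplatin libraries, without overlap, and their part in the neuronal value was not tested. In pericytes 1 of 13 partners was higher, the laminin chain Lamb2 (0.65 ± 0.17, edgeR adjusted p = 0.045). PBS stim replicate 1 did not enter the pericyte fit, so leaving it out repeated the main fit. Among the fits that left out 1 of the other libraries, Lamb2 was called only without PBS stim replicate 2 or Cisplatin stim replicate 1. With the covariate Lamb2 was at 1.19 ± 0.29 and not called (adjusted p = 0.17).

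Collagen receptors had 1 of 3 tested members higher in endothelium, Adgrg1, an adhesion receptor that binds type III collagen (0.49 ± 0.11, edgeR adjusted p = 0.011, lost without PBS stim replicate 3 and with the covariate, at 0.31 ± 0.19, adjusted p = 0.66), and 0 of 5 called in pericytes. Collagen degradation and its inhibitors had 0 of 2 called in endothelium and 0 of 3 in pericytes; the inhibitor Timp3 was at 0.32 ± 0.11 (edgeR adjusted p = 0.082) and 0.62 ± 0.17 (adjusted p = 0.074). Among small leucine-rich proteoglycans, which bind fibrils, 1 of 5 was lower in pericytes: Aspn had 52.3 to 216 CPM in PBS (n = 5) and 38.4 to 67.3 in cisplatin libraries (n = 6), a log2 fold change of -1.29 ± 0.25 (edgeR adjusted p = 0.0068, lost without PBS stim replicate 2). With the covariate it was -0.80 ± 0.37 and not called (adjusted p = 0.67). Without stimulation Aspn was at -1.66 ± 0.30 (edgeR adjusted p = 0.0080), lost without Cisplatin nonstim replicate 1 or 2, in the second batch alone and with the covariate (adjusted p = 0.82). In endothelium 0 of 1 was called, Bgn at 0.89 ± 0.35 (adjusted p = 0.14).

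Some members of the TGF-beta pathway list, a known inducer of collagen genes, were higher in vessels. In endothelium 2 of 10 members were higher and 0 lower, beside 3.13% and 2.53% of all endothelial genes. Ccn2, a matricellular growth factor, stood at 66.2, 50.6 and 24.4 CPM in PBS nonstim, 30.3, 37.2 and 105 in PBS stim, 46.7, 215 and 152 in Cisplatin nonstim and 369, 589 and 327 in Cisplatin stim. Every Cisplatin stim library was above every library of the other groups. The log2 fold change was 2.13 ± 0.27 after cisplatin (edgeR adjusted p = 2.3e-05) and 1.73 ± 0.31 for stimulation in cisplatin mice (adjusted p = 0.028; not called by DESeq2, adjusted p = 0.70). The stimulation call was lost without Cisplatin nonstim replicate 1 or 3 or Cisplatin stim replicate 1 or 2. Smad7, an inhibitor of the pathway, was higher at 0.44 ± 0.10 (adjusted p = 0.0094). In pericytes Ccn2 was higher at 1.64 ± 0.22 (edgeR adjusted p = 7.1e-05). With the ribosomal RNA-like share as covariate none of these 3 increases after cisplatin, Ccn2 and Smad7 in endothelium and Ccn2 in pericytes, was called; their log2 fold changes were 0.93 ± 0.36, 0.25 ± 0.15 and 0.93 ± 0.35 (adjusted p = 0.38, 0.66 and 0.56).

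In choroid plexus, where 8.43% of all genes were called lower, the called partner genes named here were lower: 2 of 12 biosynthesis genes (Mia3, -1.25 ± 0.29, and P4hb, -0.76 ± 0.23), 3 of 6 basement membrane partners (Hspg2, Lama5 and Nid2, from -1.48 to -0.95), 2 of 3 proteoglycans (Bgn and Ogn, at -2.11 and -1.11) and 1 of 6 TGF-beta pathway genes (Tgfbr2, -1.29 ± 0.27), with edgeR adjusted p from 0.013 to 0.049. Mia3 helps large cargo such as procollagen leave the endoplasmic reticulum, and P4hb is a subunit of prolyl hydroxylase. Hspg2, Lama5 and Nid2 encode perlecan, a laminin chain and nidogen, which build basement membranes with type IV collagen. Each of these 8 was called in 4 to 7 of the 12 fits that left out 1 library and in none with the covariate, where they stood at -1.07 to 0.36 (Bgn the highest). With replicate number as a block 5 lost their call, Hspg2 (adjusted p = 0.054), Nid2 (0.071), Lama5 (0.071), P4hb (0.082) and Ogn (0.090). In cluster 4 alone, without both PBS replicate 1 libraries, all 8 were called (-2.28 to -0.74). Each lost its call without PBS nonstim replicate 3, PBS stim replicate 2 or 3, Cisplatin nonstim replicate 2 or Cisplatin stim replicate 2, and the shifts in choroid plexus markers given above apply to them.

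**Figure D5:**
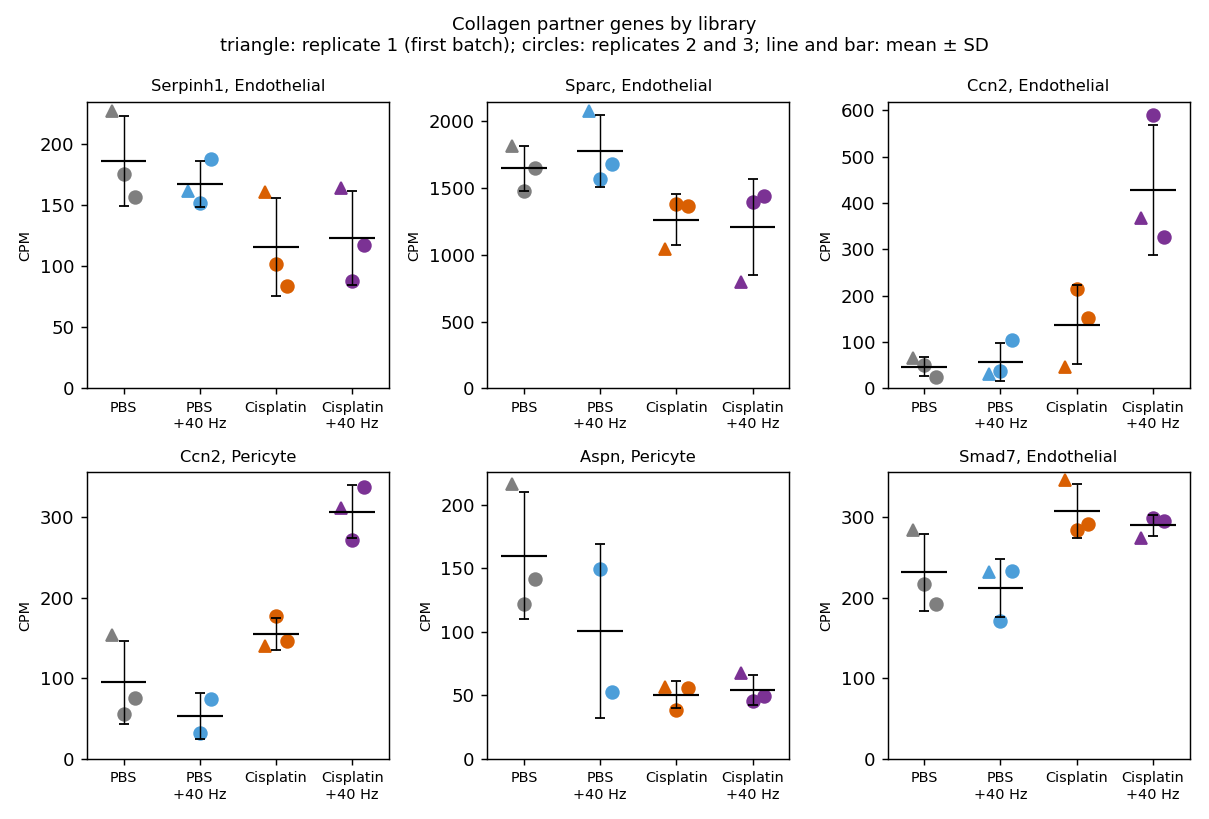
Levels (CPM, from 0) of 6 partner gene and type pairs by library and group, with mean and SD. Endothelial Sparc separates the arms (1472 to 2076 CPM in PBS, 795 to 1434 in cisplatin libraries), and endothelial Ccn2 is highest in the 3 Cisplatin stim libraries (327 to 589 CPM).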

How the data were processed

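Single-cell RNA from hippocampi was measured in 12 libraries. The labels name Cell Ranger 5.0.0, Scanpy and mm10 in the submitters' processing notes; no other settings are stated in the labels. The authors deposited whole-number UMI counts per cell and gene, which were used unchanged. The deposited total per cell (a signal that follows the summed counts, r = 0.99988) and the deposited per-gene mean score were used for checks only; these scores are the authors'. Cell types and clusters are the authors' annotation. The deposited cell table marks 0 cells as predicted doublets, and no doublet caller was run. The members and gene lists were chosen with earlier results of these data known.

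Counts were summed per library and type, and types with at least 10 cells in at least 2 libraries of each group were tested with edgeR 4.0.16 (TMM, filterByExpr with a minimum count of 10, group and batch terms, quasi-likelihood F test; R 4.3.3), with Benjamini-Hochberg adjustment over all genes of a type and comparison. limma 3.58.1 tested the difference between types and DESeq2 1.42.0 was an alternative. On simulated data, smaller changes were recovered less often than larger ones, and the share first aimed at for the smaller ones was not reached. Shares of cells were also taken after thinning to 1000 UMIs, and Poisson intervals are exact at 95%. Collagens named are the 3 highest in fibroblasts, pericytes and endothelium, the highest in each other type and those called; list genes named are up to 3 called per list, direction and comparison in endothelium, pericytes and choroid plexus, or else that with the smallest p. A listed item is not reported here. P-values measure the spread between libraries, most of which pool 2 animals. Between the stimulated and unstimulated groups, deviations from group means of same-numbered libraries correlated at 0.222 to 0.545 in the cisplatin arm and 0.263 to 0.608 in the PBS arm. Number 1 is the first batch in every group, the deviations were not adjusted for batch, and libraries with unlike numbers were not compared. These correlations therefore cannot tell paired libraries from a shared batch. Across drugs, the values with Cisplatin stim were 0.14 to 0.55, and those with Cisplatin nonstim were -0.034 and -0.073 for number 3 and 0.176 to 0.486 for the others. Since 2 of these values were below 0, the numbers were not taken to pair libraries across drugs. The main fits, those of stimulation included, held a batch term and no replicate block, and the block is given as an alternative. Alternatives and depth limits are given in the closing section.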

Additional observations from a re-analysis of the deposited data

Results flagged for a closer look

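Within each drug arm, 101 groups of 4 to 6 libraries were checked for 1 outlying library. Its gap to the nearest neighbour had to take up most of the range of the group, and this happened 12 times. A rate of about 1 in 20 holds for independent values of 1 normal spread. The groups here pool both batches and stimulation states, and many share libraries, so the 12 cannot be set against that rate. Apart from ependymal Col5a3 and pericyte Col3a1 in PBS nonstim replicate 3, each flag fell on a replicate 1 library, the first batch. All values are CPM.

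Of these, 6 concerned the choroid plexus of 1 library. There Cisplatin stim replicate 1 was the highest of the 6 cisplatin libraries for Col9a3 (505, next 332), Col4a3 (19.9, next 4.35), Col4a4 (31.2, next 10.9), Col4a5 (22.7, next 5.24), Col8a2 (79.4, next 41.9) and the laminin chain Lama5 (22.7, next 9.79).

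In pericytes, PBS nonstim replicate 1, with 15 pericytes, was far below the other 4 PBS libraries for Col4a1 (299.8, against 599 to 718). Pericyte Col3a1 was far above the rest in PBS nonstim replicate 3 (55.2, next 19.03) and in Cisplatin stim replicate 1 (50.4, next 14.95). Microglial Col15a1 was highest in PBS stim replicate 1 (38.2, next 27.0). Endothelial Smad7 was highest in Cisplatin nonstim replicate 1 (346, next 299), and ependymal Col5a3 in Cisplatin nonstim replicate 2 (148, next 118).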

How the results depend on the processing

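For cisplatin averaged over stimulation (8 collagen pairs called), 15 were called with no filter on low counts (13 lower), 3 with no batch term, 15 in the second batch alone (13 lower), 0 with the ribosomal RNA-like share as covariate, 13 without both PBS replicate 1 libraries (11 lower) and 2, both higher, in the first batch alone, where pericytes could not be fitted. Leaving out 1 library gave 3 to 13 calls, 13 without PBS nonstim replicate 1 and 3 without PBS nonstim replicate 2, PBS stim replicate 3, Cisplatin nonstim replicate 2 or Cisplatin stim replicate 2. DESeq2 gave 6, RLE normalization 9, at least 20 cells per library 12, cells under 10% mitochondrial UMIs 6 and choroid plexus cluster 4 with OPC cluster 9 alone 11. For cisplatin without stimulation (0 called), 7 were called with no filter, 10 in the second batch, 6 with at least 20 cells, 7 with those clusters alone, 9 without both PBS replicate 1 libraries and 0 to 8 leaving out 1 library. Stimulation in cisplatin mice gave 1 call with no filter, and the interaction 1 with those clusters alone. Counts with the clusters alone, without both PBS replicate 1 libraries and for the first batch were added after seeing the data. The log2 fold change of choroid plexus Col8a1 turned from -0.73 to 3.82 in the first batch alone (adjusted p = 0.036, edgeR), and that of Bgn from -2.11 to 0.36 with the covariate; the cause was not tested.

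With replicate number as a block, cisplatin averaged over stimulation gave 6 collagen calls, with Col4a3 (adjusted p = 0.0505) and Col1a2 (0.075) of choroid plexus no longer called, as were 5 partner genes there (0.054 to 0.090), and cisplatin without stimulation, both stimulation comparisons, the interaction and the test between endothelium and pericytes gave 0. Fibroblasts had values only by the rule set for them. With at least 1 cell per library 0 collagens were called, beside 11 higher and 3 lower of 778 genes tested. At least 5 cells left no PBS library, and other alternatives were not run on fibroblasts. Neurons could not be fitted without cells over 10% mitochondrial UMIs. Depth limits rare collagens most: 18 of 44 passed the filter in no type, and a share of cells with a UMI fell with thinning, as for Col27a1 in microglia, from 48.9 to 13.3%.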
